A study of Mus musculus with 6 samples.

Results

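The nuclear genes for the proteins of the mitochondrial ribosome were followed in whole mouse aorta with and without Jagged1 in the endothelium. The members are the protein-coding genes whose symbol is Mrpl or Mrps followed by a digit, leaving out the pseudogenes marked -ps. The rule found 77 of the 35275 genes in the table, 48 named Mrpl for the large subunit and 29 named Mrps for the small subunit. They lie on 17 chromosomes, with at most 10 on 1 chromosome. The mitochondrial ribosome sits in the mitochondrial matrix and translates the few mRNAs encoded by mitochondrial DNA, all of them for subunits of the respiratory chain and the ATP synthase. Its RNAs are mitochondrial, but all of its proteins are made from nuclear genes in the cytosol and imported. Some of them descend from the proteins of the bacterial ribosome, and others are found in mitochondrial ribosomes only. The members are described below in these classes. Mrps18a and Mrps18b, paralogues of a bacterial ribosomal protein, were counted among the mitochondria-specific ones.

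RNA of the aorta was sequenced in 6 libraries, 3 labelled wild-type and 3 labelled EC-Jag1KO, in which endothelial cells lack Jagged1, a ligand of Notch receptors. The labels give no promoter or Cre line, age or strain. Which animals the libraries came from is not stated either, and p-values here cover only the spread among these 6 libraries. The series asks what this loss does to the vessel wall and its smooth muscle. Endothelium, smooth muscle, adventitia and adherent fat are read together, so fewer cells of a type and less RNA per cell cannot be told apart. The libraries held 19889910 to 25914325 reads in genes, of which 35980 to 48029 fell on members. Levels are in FPKM, a fragment count corrected for gene length and library size, so levels of different genes can be compared per length. Jag1 itself stood at 9.86, 10.6 and 16.9 FPKM (wild-type) against 13.5, 9.42 and 19.6 FPKM (EC-Jag1KO). The exact two-sided permutation test gave p = 0.7, where 3 against 3 cannot go below 0.1. A whole-tissue level of the whole gene does not check an endothelial deletion. Xist was at 26.9 FPKM in wild-type replicate 3 and 40.7 FPKM in EC-Jag1KO replicate 3 and at 0.0738 FPKM or less in the other 4 libraries, which marks those 2 libraries as female. EC-Jag1KO replicate 3 also stood apart for the members themselves, so counts over the members, their classes and the pathway lists, and the genes with full values, are also given without it.

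Promoters of the members were read from RefSeq (GRCm38.p6), where 68 of the 77 members have an entry; Mrpl13, Mrpl15, Mrpl19, Mrpl38, Mrpl4, Mrpl54, Mrps28, Mrps34 and Mrps35 have none. Each window runs from 250 bases before to 50 bases after the RefSeq start, and the motifs were searched on both strands. Genes with several starts have several windows, 74 in all for the 68 members. A gene counts as holding a motif if any of its windows does. NRF1 and the ETS factor GABPA are textbook regulators of nuclear genes for mitochondrial proteins. The NRF1 motif GCGCANGCG was present in 16 of the 68 members (23.5%). It was present in 7.03% of all 27025 genes and 15.4% of the 8969 tested genes with an entry. The ETS motif CCGGAAGT was present in 12 members (17.6%), against 4.31% and 9.11%. The YY1 motif AAGATGGCG was present in 8 members (11.8%), against 1.64% and 3.67%, and the TATA box TATAAA in 5 (7.35%), against 15.7% and 8.59%. At least 1 of the first 3 motifs was present in 34 of the 68 members, and Mrps26 and Mrps27 held 2 of them. The share of other genes with at least 1 of the 3 was not computed, so the 34 cannot be set against a background. A match is a description of the letters and not a binding site.

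The 250 bases before the start are shown for 4 members at the opposite ends of the pattern across libraries described further on. Mrpl12 and Mrps21 are 2 of the 3 members that stood lowest in EC-Jag1KO replicate 3 relative to the other libraries, and Mrpl3 and Mrps27 are 2 of the 3 that stood highest there. Capitals mark the NRF1 motif or its reverse complement in the first 2 and the ETS motif or its reverse complement in the others, at positions -80, -90, -19 and -49 from the start in the order printed. The motifs did not divide the ends of the pattern in this way. Mrpl51, also among the 3 lowest, and Mrpl52, also low there, hold the ETS motif in their windows. Mrpl1, the highest, holds no NRF1, ETS or YY1 motif, and Mrpl45, also above the other libraries there, holds the NRF1 motif. These windows are chr11:120484387-120484636 (plus strand), chr3:95871515-95871764 (minus strand), chr9:105053018-105053267 (plus strand) and chr13:99344536-99344785 (plus strand).
Mrpl12: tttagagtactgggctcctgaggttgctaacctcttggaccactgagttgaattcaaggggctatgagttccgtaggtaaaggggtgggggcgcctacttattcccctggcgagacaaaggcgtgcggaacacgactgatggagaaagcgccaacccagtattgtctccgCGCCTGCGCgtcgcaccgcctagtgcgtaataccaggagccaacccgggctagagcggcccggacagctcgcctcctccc
Mrps21: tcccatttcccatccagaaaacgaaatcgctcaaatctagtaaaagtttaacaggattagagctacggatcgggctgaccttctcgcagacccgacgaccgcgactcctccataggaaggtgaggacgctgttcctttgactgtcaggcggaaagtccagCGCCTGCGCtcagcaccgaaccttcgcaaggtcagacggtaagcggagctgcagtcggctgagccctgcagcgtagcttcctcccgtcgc
Mrpl3: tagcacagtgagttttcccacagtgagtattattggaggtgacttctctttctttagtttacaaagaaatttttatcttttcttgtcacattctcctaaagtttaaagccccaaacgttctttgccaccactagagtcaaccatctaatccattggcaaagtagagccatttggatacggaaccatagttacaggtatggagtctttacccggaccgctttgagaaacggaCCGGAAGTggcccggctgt
Mrps27: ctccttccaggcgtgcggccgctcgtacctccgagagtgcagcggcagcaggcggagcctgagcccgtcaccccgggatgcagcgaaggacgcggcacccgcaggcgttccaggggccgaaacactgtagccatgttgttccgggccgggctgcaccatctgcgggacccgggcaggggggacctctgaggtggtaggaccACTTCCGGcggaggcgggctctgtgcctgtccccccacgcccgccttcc

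The members were expressed at a middle level. Over the 6 libraries 76 of the 77 had a mean of at least 1 FPKM, the filter for testing. Their means ran from 2.71 to 70.1 FPKM with a median of 13.5, against a median of 9.29 FPKM over all 12165 tested genes. A tested member drew from 112 reads (Mrpl12 in its lowest library) to 1431 reads (Mrpl4 in its highest) in a library. The exception is Mrpl53 (plus strand of chromosome 6, 83109095 to 83109939 in mm10), which is listed at 0 in all 6 libraries. Its interval lies wholly inside that of Ccdc142 on the same strand (83101617 to 83109939), which stood at 1.17 to 1.86 FPKM. How reads that fit both genes were assigned is not given in the sources used here, and the value of 0 is not read as an absence of expression. In all, 32 members overlap another gene of the table and 7 overlap one on the same strand, so their levels may share or lose reads. How often other genes overlap in this way was not computed.

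The mRNA levels of proteins that meet in 1 particle differed widely. Within the large subunit the highest means belonged to Mrpl52 (70.1 FPKM) and Mrpl42 (52.1 FPKM), both specific to mitochondria, and to Mrpl20 (47.6 FPKM), a counterpart of bacterial L20 that binds the ribosomal RNA. The lowest there were Mrpl1 (4.16 FPKM), the protein of the L1 stalk, Mrpl47 (3.65 FPKM) and Mrpl19 (2.71 FPKM). In the small subunit Mrps21 (41.0 FPKM), Mrps16 (35.4 FPKM) and Mrps15 (31.6 FPKM), all with bacterial counterparts, were highest. Mrps22 (4.08 FPKM), in which human defects cause failure of oxidative phosphorylation, Mrps35 (4.0 FPKM) and Mrps25 (2.72 FPKM) were lowest. By class the median level was 15.5 FPKM over 29 large subunit proteins with a bacterial counterpart, 11.0 over 20 large subunit proteins specific to mitochondria, 15.2 over 16 small subunit proteins with a counterpart and 6.77 over 11 specific ones. The ranges of the classes overlapped, from 2.71 to 47.6, 5.53 to 70.1, 4.38 to 41.0 and 2.72 to 22.8 FPKM.

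No mitoribosomal gene was called different between the genotypes. With limma and Benjamini-Hochberg adjustment over all tested genes, 0 of the 76 members passed at 0.05, the smallest adjusted p among them being 0.670. Over all 12165 genes 0 (0%) passed as well, with a smallest adjusted p of 0.232. At an unadjusted p under 0.05 there were 0 members, against 938 genes (7.71%). By mean log2(FPKM + 1) EC-Jag1KO was higher for 36 members and lower for 40 (47.4% higher, against 50% of all genes). The log2 fold changes of log2(FPKM + 1), EC-Jag1KO minus wild-type, ran from -0.30 to 0.31 with a median of -0.01, where all genes had a median of -0.00022. The median size of the fold change, regardless of direction, was 0.08 over the members and 0.11 over all genes. These tests do not show equal expression, but they bound the difference. The 95% interval lay within 2-fold in both directions for 75 of the 76 members (98.7%, against 93.4% of all genes), Mrpl12 being the exception, and within 1.5-fold for 61 (80.3%, against 71.6%).

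**Figure D1:**
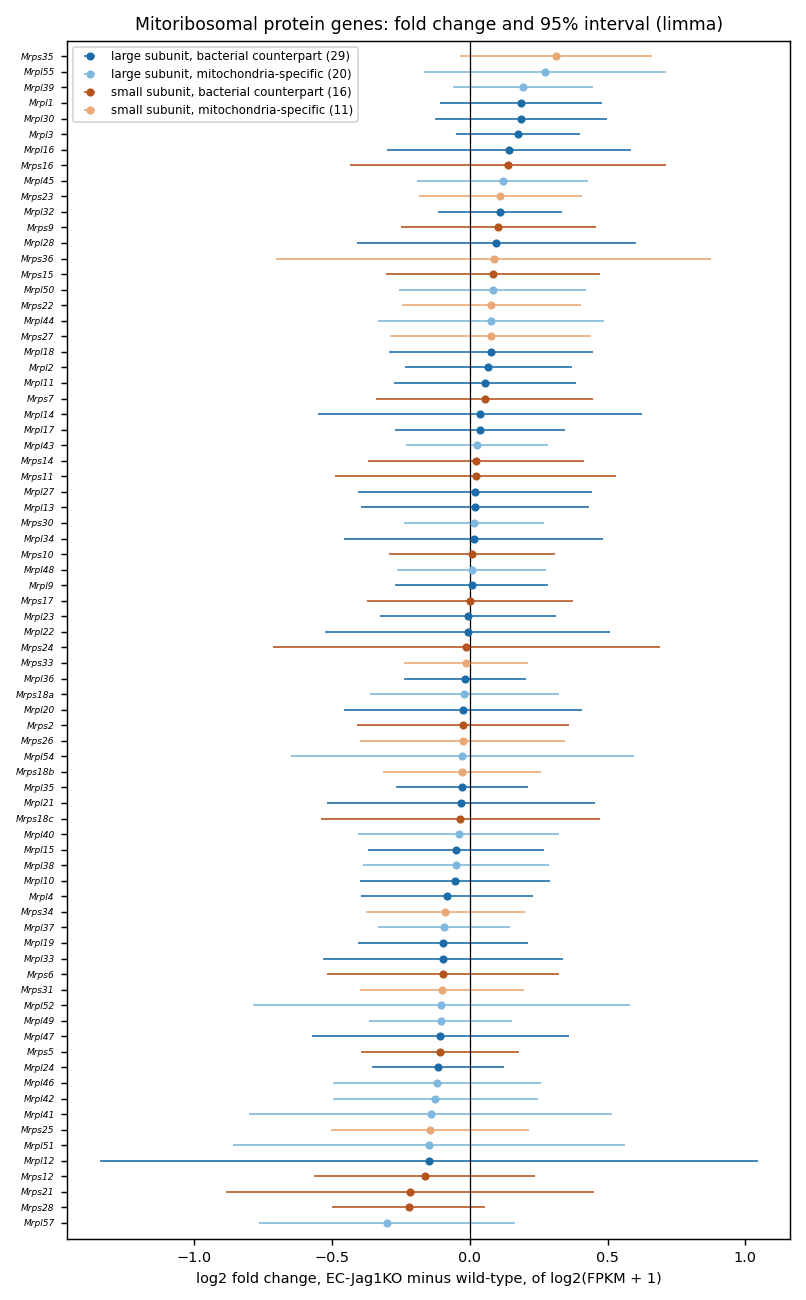
Log2 fold change of each of the 76 tested mitoribosomal protein genes (horizontal axis, EC-Jag1KO minus wild-type, on log2(FPKM + 1)) with its 95% limma interval, ordered by value and coloured by class. The values run from -0.30 (Mrpl57) to 0.31 (Mrps35), 0 of the 76 pass the adjusted threshold, and the widest interval is that of Mrpl12.

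The classes of the ribosome were each divided between the directions. The large subunit had 23 members higher and 26 lower in EC-Jag1KO (median -0.01), and the small subunit had 13 higher and 14 lower (median -0.01). Among the large subunit proteins with a bacterial counterpart 15 were higher and 14 lower (median 0.01), and among those specific to mitochondria 8 were higher and 12 lower (median -0.03). In the small subunit the counts were 8 and 8 for the proteins with a counterpart (median -0.01) and 5 and 6 for the others (median -0.01).

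The groups did not overlap for 2 members (2.63%), Mrpl3 and Mrps28, whereas this was so for 1651 of all tested genes (13.6%). Mrpl3, a conserved protein of the large subunit core, read 8.01, 8.0 and 7.69 FPKM in wild-type aorta and 8.27, 9.14 and 9.78 FPKM in EC-Jag1KO aorta, the wild-type values lying close together. The means were 7.90 ± 0.18 and 9.06 ± 0.76 FPKM (SD, n = 3 each), a log2 fold change of 0.17 (SE 0.096, limma adjusted p = 0.730). Mrps28, a protein of the small subunit, went the other way, with 20.2, 21.8 and 25.9 FPKM in wild-type aorta and 19.95, 19.97 and 17.6 FPKM in EC-Jag1KO aorta. Wild-type replicate 1 and EC-Jag1KO replicates 1 and 2 were nearly level there. The means were 22.6 ± 3.0 and 19.2 ± 1.4 FPKM, a log2 fold change of -0.22 (SE 0.12, limma adjusted p = 0.711).

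Among the other members with higher means in EC-Jag1KO aorta, the smallest p belonged to Mrps35, a mitochondria-specific protein of the small subunit. It read 3.23, 2.79 and 4.44 FPKM in wild-type aorta and 4.43, 4.50 and 4.62 FPKM in EC-Jag1KO aorta. The 3 EC-Jag1KO values and wild-type replicate 3 were level, and the other 2 wild-type values lay below them. The log2 fold change was 0.31 (SE 0.15), with a limma adjusted p of 0.670. Mrpl39, specific to the mitochondrial large subunit, read 8.34, 7.51 and 6.94 against 9.62, 8.81 and 8.07 FPKM, with 1 overlapping pair of libraries (0.19, adjusted p = 0.735). Mrpl1 had 3.903, 3.42 and 4.15 against 4.10, 4.19 and 5.23 FPKM (0.19, adjusted p = 0.777), its highest value being that of EC-Jag1KO replicate 3. Mrpl55, also specific to mitochondria, had 13.4, 10.2 and 13.7 against 19.7, 14.0 and 12.4 FPKM (0.27, adjusted p = 0.784). Here EC-Jag1KO replicate 1 stood above the others. Mrpl30, a counterpart of bacterial L30, had 40.2, 34.95 and 39.1 against 48.0, 47.0 and 36.0 FPKM (0.18, adjusted p = 0.80). The last 2 named in this direction, Mrpl32, a protein cut to its mature form by a mitochondrial protease before assembly, and Mrpl45, which faces the inner membrane, had log2 fold changes of 0.11 and 0.12.

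Among the other members with lower means in EC-Jag1KO aorta, Mrpl57, specific to the mitochondrial large subunit, had the most negative value. It read 5.84, 5.503 and 7.11 FPKM in wild-type aorta and 6.59, 4.68 and 3.48 FPKM in EC-Jag1KO aorta. EC-Jag1KO replicate 1 lay among the wild-type values and the other 2 below them, and the log2 fold change of -0.30 (SE 0.20) had a limma adjusted p of 0.774. Mrps12, the protein at the decoding centre, read 21.1, 15.8 and 26.1 against 19.1, 18.6 and 17.1 FPKM (-0.16, adjusted p = 0.868), and the wild-type values enclosed all 3 others. Its start lies 148 bases from that of Sars2, the mitochondrial seryl-tRNA synthetase, which is transcribed in the other direction and stood at 2.79 to 3.68 FPKM with a log2 fold change of 0.03. The remaining members named by smallest p were Mrpl24 (-0.11), Mrpl49 (-0.11), Mrps25 (-0.14), Mrpl37 (-0.09) and Mrps5 (-0.11).

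The S18 family shows 3 paralogues of 1 bacterial protein that occupy different places in the mammalian mitoribosome. Mrps18a, which sits in the large subunit despite its name, averaged 10.5 FPKM in wild-type and 10.4 FPKM in mutant aorta (log2 fold change -0.02). Mrps18b averaged 10.2 and 9.98 FPKM (-0.03), and Mrps18c averaged 16.8 and 16.5 FPKM (-0.03). The 95% intervals of the log2 fold change were -0.36 to 0.32, -0.32 to 0.26 and -0.54 to 0.47 in the same order. Mrps30, another large subunit protein with a small subunit name, averaged 7.81 and 7.88 FPKM (0.01), and Mrpl44, in which human defects cause cardiomyopathy, 9.26 and 9.82 FPKM (0.08).

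**Figure D2:**
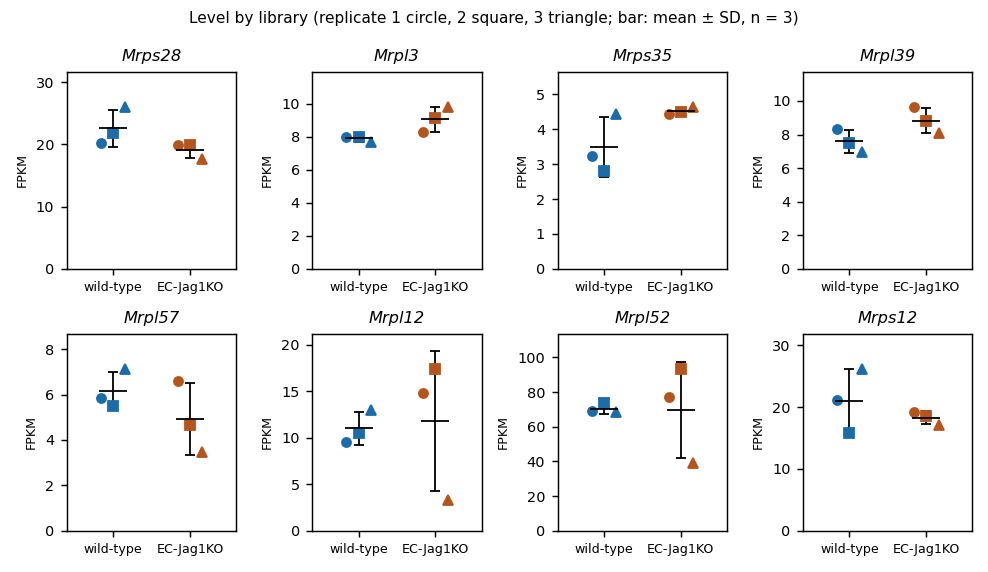
FPKM of 8 members in each library (vertical axes start at 0; circle, square and triangle are replicates 1, 2 and 3; bars are mean ± SD, n = 3). Mrps28 and Mrpl3 are the 2 members whose groups do not overlap, and in Mrpl12 and Mrpl52 the triangle of EC-Jag1KO replicate 3 lies far below the other 5 libraries.

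Most members shared a pattern across the libraries that did not follow genotype. For each library the deviation of a gene is its log2(FPKM + 1) minus the mean of the other 5 libraries. The median deviation of the 76 members was -0.01, -0.13 and 0.15 in wild-type replicates 1 to 3 and 0.16, 0.14 and -0.29 in EC-Jag1KO replicates 1 to 3. Over all tested genes these medians lay between -0.01 and 0.04. EC-Jag1KO replicate 3 held the lowest of the 6 values for 53 of 76 members (69.7%), against 25.6% of all tested genes. Wild-type replicate 2 held it for 18 members (23.7%, against 17.1%), and the other 4 libraries for 5 in all. The summed level of the members was 1253, 1169 and 1401 FPKM in wild-type aorta and 1420, 1434 and 995 FPKM in EC-Jag1KO aorta.

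**Figure D3:**
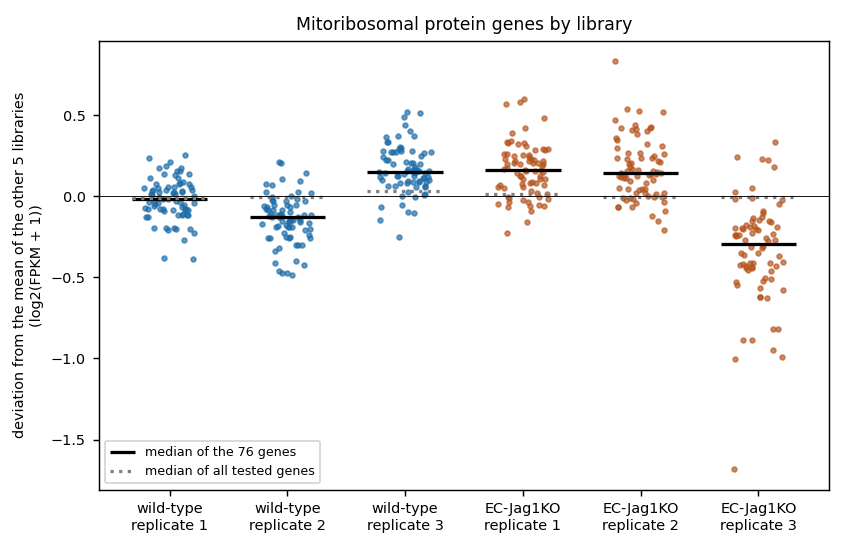
Deviation of each of the 76 members from the mean of the other 5 libraries (vertical axis, log2(FPKM + 1)) in each library, with the median of the members (solid bar) and of all tested genes (dotted bar). The members' median is -0.29 in EC-Jag1KO replicate 3 and 0.16 and 0.14 in the other 2 EC-Jag1KO libraries.

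Mrpl12 showed this most. It is the protein of the flexible stalk that recruits translation factors, and it is also known to bind the mitochondrial RNA polymerase. It read 9.52, 10.5 and 13.0 FPKM in wild-type aorta and 14.9, 17.3 and 3.28 FPKM in EC-Jag1KO aorta, so that 1 genotype held both its highest values and its lowest. The mean FPKM was 11.0 ± 1.8 in wild-type and 11.8 ± 7.5 in EC-Jag1KO aorta, higher in the latter. On the log2(FPKM + 1) scale, where the low value of EC-Jag1KO replicate 3 weighs more, the direction turned, with a fold change of -0.15 and a 95% interval from -1.34 to 1.04. Without EC-Jag1KO replicate 3 the log2 fold change was 0.52 (0.16 to 0.87), with a limma adjusted p of 0.455. Mrpl52 read 68.9, 73.9 and 68.6 against 77.3, 93.1 and 38.9 FPKM, and Mrps21 read 46.2, 39.0 and 43.9 against 50.1, 45.0 and 21.9 FPKM. In both the last library was again the lowest.

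Further members with this shape, chosen after their values were seen, include Mrpl51, with 10.9, 9.71 and 12.5 against 12.6, 13.6 and 5.38 FPKM. Mrps36 is counted with the small subunit by its name, and is known as a component of the oxoglutarate dehydrogenase complex. It had 19.2, 16.3 and 29.7 against 30.6, 27.8 and 13.2 FPKM. Mrps24 had 25.5, 26.8 and 34.95 against 36.8, 37.2 and 16.8 FPKM. The deviations in EC-Jag1KO replicate 3 were -1.68 for Mrpl12, -1.004 for Mrpl51, -0.99 for Mrps21, -0.95 for Mrpl52, -0.88 for Mrps24 and -0.82 for Mrps36. By class, that library was lowest for 21 of 29 and 13 of 20 members of the large subunit (with and without a bacterial counterpart). The counts in the small subunit were 14 of 16 and 5 of 11.

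There were 7 members above the mean of the other 5 libraries in EC-Jag1KO replicate 3. Mrpl1 (deviation 0.33), Mrps27 (0.24), Mrpl3 (0.23), Mrps35 (0.22) and Mrpl45 (0.18) had the largest deviations of these, and Mrpl36 (0.05) and Mrpl32 (0.03) lay near 0. That library held the highest of the 6 values for 3 members, Mrpl1, Mrpl3 and Mrps35. Mrps27, a mitochondria-specific protein of the small subunit, read 4.90, 4.48 and 6.34 against 4.57, 5.82 and 6.31 FPKM. Over the 6 libraries, a member's log2(FPKM + 1) correlated with the median of the other members with a median Pearson r of 0.82 (42 members above 0.8, 66 above 0.5), given as a description because the points share their libraries. The values closest to the shared pattern were those of Mrps2 (r = 0.989), Mrps36 (0.987) and Mrps26 (0.977), and Mrpl3 (-0.50), Mrpl1 (-0.37) and Mrps27 (-0.10) had negative values.

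The deviation in EC-Jag1KO replicate 3 went with gene length. In that library tested protein-coding genes of up to 1 kb had a median deviation of -0.41 (611 genes), those of 1 to 2 kb -0.18 (2199), those of 2 to 4 kb -0.02 (4766) and those over 4 kb 0.14 (3934). The members are short, with a median length in the table of 1407.5 bases against 3165.5 for tested protein-coding genes. In the same bins the members' medians were -0.48 (22 members), -0.24 (26), -0.26 (19) and -0.28 (9). The members thus lay near the other genes up to 2 kb and below them in the longer bins, the last of which holds few members. Across the 76 members the deviation in that library had a Pearson r of 0.36 and a Spearman rho of 0.38 with log2 gene length, a description across genes that share 1 library. In EC-Jag1KO replicates 1 and 2 the members' Pearson r was -0.23 and -0.34. From the shortest to the longest bin, the protein-coding medians there went from 0.16 to -0.01 and from 0.27 to -0.07. In wild-type replicate 3 they went from 0.13 to -0.03. The means behind these deviations include EC-Jag1KO replicate 3. The part of gene length in the members' levels was not tested.

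**Figure D4:**
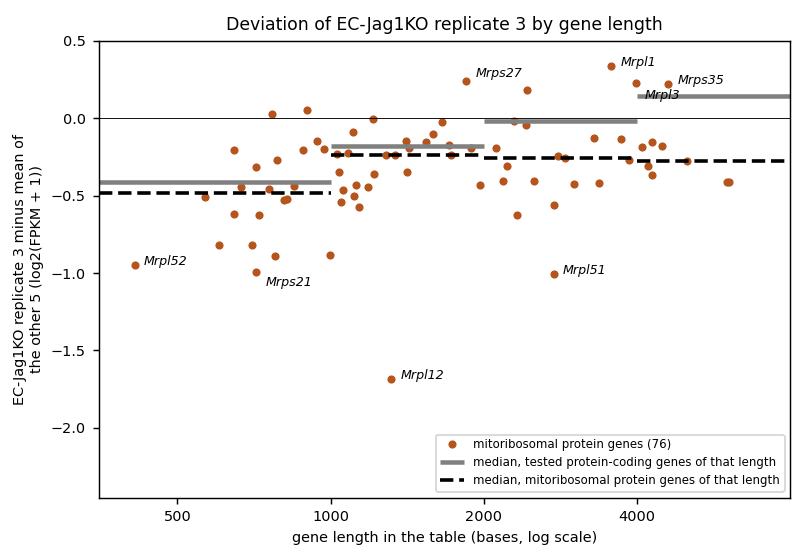
Deviation of EC-Jag1KO replicate 3 from the mean of the other 5 libraries (vertical axis, log2(FPKM + 1)) against gene length in the table (horizontal axis, log scale) for the 76 members, with medians per length bin for tested protein-coding genes (solid grey) and members (dashed black). The protein-coding medians go from -0.41 in the shortest bin to 0.14 in the longest, and the members' medians from -0.48 to -0.28.

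The ribosomal proteins of the cytosol and the nuclear subunits of oxidative phosphorylation give the setting for this pattern. EC-Jag1KO replicate 3 held the lowest value for 66 of 79 cytosolic ribosomal protein genes (83.5%) and 47 of 89 oxidative phosphorylation genes (52.8%). The cytosolic ribosomal proteins had median deviations of -0.07, 0.10 and 0.07 in wild-type and 0.16, 0.30 and -0.53 in EC-Jag1KO libraries. The oxidative phosphorylation genes had -0.03, -0.39 and 0.20 in wild-type and 0.36, 0.32 and -0.47 in EC-Jag1KO libraries, so wild-type replicate 2 was low for them as well as EC-Jag1KO replicate 3. The mitoribosomal members were low in both of these libraries, like the oxidative phosphorylation genes and by less. Between genotypes the median log2 fold change was -0.05 for the cytosolic ribosomal proteins (25 higher, 54 lower) and 0.14 for the oxidative phosphorylation genes (66 higher, 23 lower), beside -0.01 for the members.

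The count of higher and lower members depended on which library was in the comparison. Without EC-Jag1KO replicate 3, 62 of 76 members were higher in EC-Jag1KO aorta, with a median log2 fold change of 0.13. By class these were 25 of 29 and 17 of 20 members of the large subunit (with and without a bacterial counterpart) and 13 of 16 and 7 of 11 of the small subunit, with medians of 0.12, 0.09, 0.16 and 0.06. Mrpl12, Mrpl16, Mrpl28, Mrpl30, Mrpl54 and Mrps7 then had unadjusted limma p-values under 0.05, which is 7.89% of members against 9.27% of all genes, and their smallest adjusted p was 0.455. Without EC-Jag1KO replicate 1 or 2, in contrast, 20 and 19 members were higher, with medians of -0.08 in both. Without wild-type replicate 2 there were 22 higher (median -0.07), without wild-type replicate 3 there were 53 (median 0.05), and without wild-type replicate 1 there were 32 (median -0.03). In each of these 6 comparisons 0 members passed the adjusted threshold, and the median over all tested genes lay between -0.009 and 0.01. The share of all tested genes that were higher was not computed for them.

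The named members followed these shifts to different degrees when EC-Jag1KO replicate 3 was left out. The log2 fold change became 0.12 for Mrpl3, -0.16 for Mrps28, 0.30 for Mrps35, 0.25 for Mrpl39, 0.09 for Mrpl1, 0.40 for Mrpl55 and 0.31 for Mrpl30. It became -0.12 for Mrpl57 and -0.12 for Mrps12. In the S18 family the values turned from slightly negative to 0.10 for Mrps18a, 0.06 for Mrps18b and 0.18 for Mrps18c, and their 95% intervals still held 0.

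Both female libraries were also left out, a comparison of 2 against 2 chosen after the data were seen. There 72 of 76 members were higher in EC-Jag1KO aorta, with a median of 0.18, against 0.02 over all tested genes. Of the members 16 (21.1%) had an unadjusted limma p under 0.05, against 11.2% of all tested genes, and the smallest adjusted p was 0.184, that of Mrps36 (log2 fold change 0.69). Mrpl12 (0.63) and Mrps24 (0.49) followed. The levels behind this are those given above: Mrps36 then compares 19.2 and 16.3 with 30.6 and 27.8 FPKM. With sex as a covariate in the fit of all 6 libraries, 36 members were higher and the smallest adjusted p of a member was 0.582. The genotypes hold equal numbers of female libraries, so this covariate cannot change a fold change. The count of 36 was therefore fixed by the design, and only the p-values could move.

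**Figure D5:**
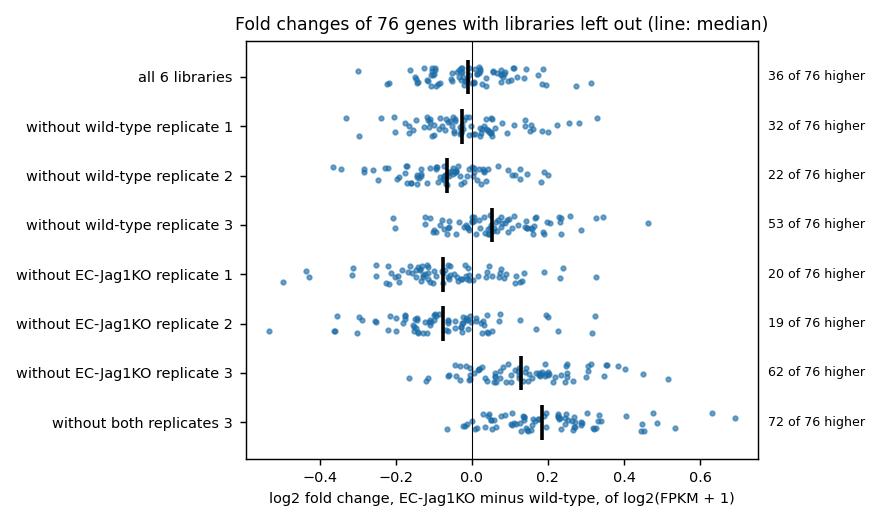
Log2 fold changes of the 76 members (points; horizontal axis, EC-Jag1KO minus wild-type on log2(FPKM + 1)) with all libraries and with libraries left out, the bar marking the median. The median moves from -0.08 without EC-Jag1KO replicate 2 to 0.13 without EC-Jag1KO replicate 3 and 0.18 without both replicates 3.

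Fat around the vessel differed between the libraries too. The mean log2(FPKM + 1) of 9 brown adipocyte markers, tested or not, was 3.87, 2.07 and 4.48 in wild-type and 4.13, 3.69 and 3.69 in EC-Jag1KO libraries, lowest in wild-type replicate 2. Ucp1, the uncoupling protein that defines brown fat, read 108, 8.74 and 263 FPKM in wild-type aorta and 144, 63.6 and 85.2 FPKM in EC-Jag1KO libraries. Brown adipocyte markers summed to 52.6 to 602 FPKM in wild-type aorta and 263 to 436 FPKM in EC-Jag1KO libraries, with 7 of 8 tested higher in EC-Jag1KO. White adipocyte markers summed to 513 to 2766 and 1171 to 2549 FPKM, with 9 of 9 tested higher. None of the markers in these lists was at 0 throughout. Of the tested ones 0 had an unadjusted limma p under 0.05, against 7.71% of all tested genes. The mean log2(FPKM + 1) of the white markers was 6.0, 4.43 and 6.60 in wild-type and 6.5, 6.12 and 5.66 in EC-Jag1KO libraries, lowest in wild-type replicate 2 and next lowest in EC-Jag1KO replicate 3. With the fat marker level as a covariate 22 members were higher in EC-Jag1KO and 0 passed the adjusted threshold.

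Other cell types gave the following marker values. Cardiac and skeletal muscle markers summed to 9.36 to 21.9 FPKM in wild-type aorta and 17.5 to 44.6 FPKM in EC-Jag1KO libraries (7 of 8 tested higher, 1 at an unadjusted limma p under 0.05). Over all tested genes 7.71% were at that p. Contractile smooth muscle markers, which define the tissue, summed to 14116 to 14815 and 11827 to 14148 FPKM (3 of 8 higher). Of these, 2 were higher and 2 lower at that unadjusted p. Endothelial markers summed to 277 to 404 and 318 to 402 FPKM (6 of 8 higher, 1 at that p). Fibroblast markers summed to 1241 to 1479 and 1373 to 1461 FPKM and macrophage markers to 166 to 207 and 191 to 226 FPKM, with 6 of 8 higher in each (2 and 1 at that p). Schwann cell and nerve markers summed to 42.0 to 50.3 and 49.5 to 78.3 FPKM (4 of 4 tested higher). Lymphocyte markers summed to at most 2.86 FPKM and none reached the filter. Red blood cell genes summed to 740 to 1518 and 190 to 918 FPKM, with 5 of 5 lower, 4 of them at that p. The part of these cells in the members' levels was not tested, beyond the fat covariate above.

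The rest of the machinery around the mitoribosome was examined in the same fit, and 0 genes of these lists passed the adjusted threshold. The list of mitoribosomal proteins under other symbols has 7 genes, 1 of which, Mrpl57, is also a member. There 4 were higher and 3 lower (median 0.05, smallest adjusted p 0.774). They include Ptcd3, a small subunit protein with RNA-binding repeats, at 10.8 and 12.1 FPKM in wild-type aorta and EC-Jag1KO aorta (0.16), Aurkaip1 (0.14) and Gadd45gip1 (-0.35). The factors for assembly and rRNA modification had 15 of 25 tested genes higher (median 0.06, smallest adjusted p 0.735). Tfb1m, the dimethylase of the small ribosomal RNA, averaged 2.77 and 3.65 FPKM (0.30), and Mterfd1 had a log2 fold change of 0.12. Rpusd4, a pseudouridine synthase of the large ribosomal RNA, averaged 6.83 and 5.66 FPKM (-0.24), and the GTPase Mtg2 had -0.17.

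Among the translation factors 11 of 16 were higher (median 0.07), and 1 had an unadjusted p under 0.05, against 7.71% of all tested genes. This was Oxa1l, the insertase that takes nascent chains from the mitoribosome into the inner membrane. It read 14.7, 13.1 and 15.4 FPKM in wild-type aorta and 17.7, 17.3 and 17.7 FPKM in EC-Jag1KO aorta, without overlap. The log2 fold change was 0.27 (SE 0.093, limma adjusted p = 0.566). Over all tested genes 13.6% had groups without overlap. Guf1 (0.16), Gfm1 (-0.09) and Tsfm (-0.14), factors of elongation or its control, were the others named by the rule. Of the 17 mitochondrial aminoacyl-tRNA synthetases 9 were higher and 8 lower (median 0.01). Aars2, which charges alanine tRNA, read 6.62, 6.03 and 6.26 against 5.88, 5.29 and 4.59 FPKM (-0.23, limma adjusted p = 0.677). Iars2 (0.14), Mars2 (0.07) and Cars2 (-0.16) were the others named.

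The genes of mitochondrial DNA maintenance and transcription were split, with 5 higher and 5 lower of 10 tested (median 0.00). Mgme1, an exonuclease that processes ends of mitochondrial DNA, read 3.74, 4.58 and 6.62 FPKM in wild-type aorta and 2.04, 2.73 and 2.09 FPKM in EC-Jag1KO aorta, without overlap. Its log2 fold change was -0.84 (SE 0.19, limma adjusted p = 0.402). A lack of overlap was found for 13.6% of all tested genes. Tefm (0.13), Tfb2m (0.08) and Polg (-0.10) were the others named. Of 10 regulators of mitochondrial biogenesis 7 were higher (median 0.03). Myc, a transcription factor that promotes ribosome and mitochondrial biogenesis, read 1.84, 1.37 and 1.56 against 2.39, 3.07 and 3.73 FPKM, without overlap (0.64, SE 0.16, limma adjusted p = 0.402). Ppargc1b, a coactivator of such genes, averaged 2.21 ± 1.3 and 3.58 ± 0.59 FPKM (0.59, limma adjusted p = 0.689), and Gabpb1 (-0.13) and Yy1 (-0.03) were the 2 named as lower. In EC-Jag1KO replicate 3 these regulators had a median deviation of 0.18, opposite in sign to that of the members. The mitochondrial ribosomal RNAs were not matched under the symbols mt-Rnr1 and mt-Rnr2 and were not analysed here.

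Without EC-Jag1KO replicate 3, 0 genes of these lists passed the adjusted threshold either. The counts higher were then 5 of 7 mitoribosomal proteins under other symbols (median 0.16), 17 of 25 assembly and modification factors (0.10), 13 of 16 translation factors (0.08) and 9 of 17 synthetases (0.02). They were 7 of 10 for mitochondrial DNA maintenance and transcription (0.05) and 5 of 10 for the regulators (-0.03). Oxa1l then had a log2 fold change of 0.27, Mgme1 -0.80, Myc 0.52 and Aars2 -0.15, with limma adjusted p-values of 0.512, 0.447, 0.467 and 0.677.

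In the genome 33 of the 77 members have a start of a gene on the opposite strand within 1 kb. In 30 cases that neighbour is protein-coding. The share over all genes was not computed, so these counts are not read as a trait of the members. Mrps11 and Mrpl46, 1 from each subunit, share such an arrangement, with starts 412 bases apart and intervals that overlap between those starts. In mm10 Mrps11 lies on the plus strand of chromosome 7 from 78783119 to 78792989.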

How the data were processed

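The authors deposited 1 table of FPKM values for 35275 genes, with coordinates, gene length and biotype per the file headers. Tools the authors listed, per the submitters' processing notes, are STAR, HTSeq and edgeR, without versions or roles, and the build is mm10. For the annotation release, strand setting and filters the sources used here give nothing.

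In the deposited FPKM values at least 99.99% in each library were within 0.05 of a whole number of reads, which gave the depth. All values were put on the log2(FPKM + 1) scale, which understates the change of low genes. The 12165 genes averaging 1 FPKM or more were fitted with limma 3.58.1 in R 4.3.3, with no term but genotype, an intensity trend and Benjamini-Hochberg adjustment over all of them at 0.05. The fit was tested on simulated data. Python 3.11.15 with matplotlib 3.10.9 drew the plots. Pairs of libraries differed by a chi-square of 30.9 to 94.9 per degree of freedom, far above sampling noise.

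The members, lists and tests were chosen with earlier results of these data known. Of 247 symbols in 21 lists, 245 were matched. Members named are any past the adjusted threshold, the 8 of smallest p per direction, the 3 highest and 3 lowest by level per subunit, the Mrps18 family, Mrpl12, Mrpl44, Mrps12 and Mrps30, and, in each pathway list, up to 2 genes of smallest p per direction. Alternatives covered pseudocount, filter, scaling, variance trend, replicate number as a block, fat markers or sex as covariate, and each library left out. Voom on recovered reads and 2 pairs of libraries left out were chosen after seeing the data.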

Additional observations from a re-analysis of the deposited data

How the results depend on the processing

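In all 18 alternatives 0 members passed the adjusted threshold. The number of members higher in EC-Jag1KO, 36 of 76, lay between 19 and 62 with each library left out in turn. It was 22 with the fat marker covariate and, both chosen after seeing the data, 72 without both female libraries and 54 without wild-type replicate 2 and EC-Jag1KO replicate 3. Median centring, quantile normalization and voom on recovered reads gave 29, 30 and 32. The number of members at an unadjusted p under 0.05, 0 with all libraries, was 0 to 6 with each library left out, 1 with the fat covariate (Mrps12), 1 with the sex covariate (Mrps35), 16 without both female libraries and 2 without wild-type replicate 2 and EC-Jag1KO replicate 3 (Mrpl12 and Mrpl30). The members' median of -0.01 became 0.18 without both female libraries. Over all genes 0 passed the adjusted threshold with all libraries, 0 to 4 with each library left out, 1 with the sex covariate and 2 without both female libraries. The count of genes at an unadjusted p under 0.05, 938, was 1436 without the filter on low values, 588 and 1437 when EC-Jag1KO replicates 1 and 2 were left out singly, and 604 when wild-type replicate 2 was. The causes of these shifts were not tested. With the replicate block 842 genes were at that p. The block is balanced over the genotypes and cannot change a fold change, so its 36 members higher and median of -0.01 were fixed by the design. The labels do not say whether equal replicate numbers mark paired samples. Deviations of same-numbered libraries correlated at 0.05, 0.05 and -0.05, which cannot settle whether samples were paired. Of 552 values for the 31 named members and the other alternatives, 9 moved by more than the spread between replicates, and no call changed. With 3 libraries a group, differences whose 95% interval holds 0 could not be told from 0.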
